A study of Mus musculus with 2 samples.

Results

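Calcium enters and is released inside dorsal root ganglion (DRG) sensory neurons through channels built from 37 genes examined here. They are the 37 of 24411 genes in the deposited files whose symbols name a subunit of the voltage-gated calcium channels (Cacna1, Cacna2d, Cacnb and Cacng), a ryanodine receptor, an inositol trisphosphate (IP3) receptor, a STIM sensor or an ORAI channel. The members were taken by symbol alone and no measured value entered that rule, though earlier results of these data were known when it was set. The RNA came from 2 libraries of C57BL/6 mice (C57BL/6J in the study's methods), each made from the DRG neurons of 10 pooled mice. One group of young adult male mice was injected intraperitoneally with the aluminium adjuvant alum. The other received alum together with KLH, keyhole limpet hemocyanin, which is the oxygen carrier of a marine snail and a foreign antigen to the mouse. Both groups had a first injection and a booster. The label of the first library calls it both naïve and alum alone, and it is called the alum pool below. Thoracic and lumbar ganglia were digested, enriched for neurons on a BSA cushion and depleted of B lymphocytes with beads, so the pools also hold glia and other cells that came through this enrichment.

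Voltage-gated calcium channels open when the membrane depolarizes. The alpha1 subunit forms the pore and sets the channel type, the beta and alpha2delta subunits bring the channel to the membrane and tune its gating, and several gamma proteins serve AMPA-type glutamate receptors instead. N-type and P/Q-type channels let in the calcium that triggers transmitter release from sensory terminals, L-type channels couple activity to transcription, and T-type channels open near the resting potential. Calcium stored in the endoplasmic reticulum leaves through ryanodine and IP3 receptors, and STIM proteins sense the emptied store and open ORAI channels in the plasma membrane.

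Both pools expressed the defining genes of the labelled tissue. All 7 sensory neuron markers were above 3 TPM, where TPM is a length-normalized transcript abundance on a scale common to both libraries and 3 TPM is the study's threshold for detectable expression, with a sum of 6505 TPM in the alum pool and 6588 TPM in the alum + KLH pool. Most of that sum was Snap25, at 4056.6 and 4278.5 TPM, and 4 of the 7 markers were lower in the alum + KLH pool. All 5 satellite glia markers and 4 of 6 Schwann cell markers were also above the 3 TPM threshold. None of 6 immune cell markers and none of 11 skeletal muscle markers passed it, and the skeletal muscle markers summed to 0.598 and 0.577 TPM. Of 7 smooth muscle and pericyte markers only Rgs5 passed it, at 172.2 TPM in the alum pool and 162.4 TPM in the alum + KLH pool. TPM keeps no read count. The study's methods state a minimum read number for each library, but the reads behind each value cannot be recovered from the files. With 1 library per group there was no replicate, no value below carries an error between mice, and no difference was tested. In pooled tissue, fewer cells of a type and less RNA per cell cannot be told apart.

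At the RNA level the N-type gene led the alpha1 genes of these pools, and RNA of the alpha2delta and beta subunits far exceeded that of the pores. Of the 37 genes, 23 were above 3 TPM in the alum pool and 22 in the alum + KLH pool, and the difference was Orai1. Over all 24411 genes, 11454 were above 3 TPM in the alum pool and 11302 in the alum + KLH pool. The alpha2delta genes together reached 348.7 TPM in the alum pool and 345.0 TPM in the alum + KLH pool, and the beta genes 235.7 and 247.1 TPM. The P/Q-, N- and R-type alpha1 genes summed to 64.6 and 62.7 TPM, the L-type genes to 22.2 and 21.9 TPM, and the T-type genes to 2.93 and 2.24 TPM. The L-type and the P/Q-, N- and R-type pores together form the high-voltage-activated class. Against their sum, alpha2delta RNA was 4.02 times as abundant in the alum pool and 4.08 times in the alum + KLH pool, and beta RNA 2.71 and 2.92 times. TPM divides by transcript length, so these levels can be compared between genes.

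**Figure D1:**
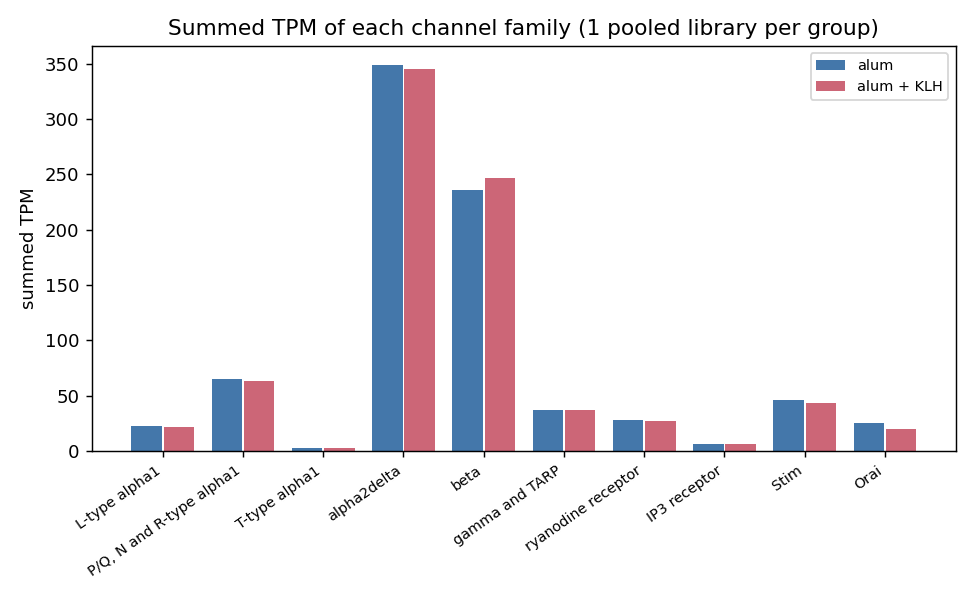
Summed TPM (y axis, linear from 0) of the member genes of each family in the alum library (blue) and the alum + KLH library (red), 1 pooled library per group and no error bars. The alpha2delta bars stand at 348.7 and 345.0 TPM and the T-type bars at 2.93 and 2.24 TPM.

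Cacna1b, which encodes the N-type pore, was the highest alpha1 gene. It was at 42.7 TPM in the alum pool and 41.2 TPM in the alum + KLH pool and lies on chromosome 2 (24603860 to 24763200, GRCm38). Cacna1c, the principal L-type pore of heart and neurons, was at 18.8 and 18.1 TPM, so Cacna1b exceeded it 2.27-fold in both pools. Cacna1a, the P/Q-type pore, was at 13.95 and 13.96 TPM, the closest agreement between the pools of any detected member. Cacna1e, the R-type pore, followed at 7.91 and 7.52 TPM, and the second neuronal L-type gene Cacna1d at 3.30 and 3.67 TPM. These 5 were the alpha1 genes above 3 TPM in either pool, and they kept the same order in both. The retinal L-type gene Cacna1f was at 0.112 and 0.0873 TPM, and the skeletal muscle gene Cacna1s was listed at 0 in the alum pool and at 0.0171 TPM in the other.

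All 3 T-type genes were below the threshold. Cacna1h, the T-type gene best known from DRG neurons, where it marks D-hair and other low-threshold mechanoreceptors, was at 1.86 TPM in the alum pool and 1.43 TPM in the alum + KLH pool. Cacna1i was at 1.03 and 0.794 TPM and Cacna1g at 0.0381 and 0.0194 TPM. Cacna1h thus stood at a level that 51.3% and 53.1% of all genes exceeded, while 17.0% and 17.3% exceeded Cacna1b.

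Cacna2d1 was the most abundant member of all. It encodes the alpha2delta protein that binds gabapentin and pregabalin and lies on chromosome 5 (15934264 to 16374511). It reached 287.5 TPM in the alum pool and 283.4 TPM in the alum + KLH pool, levels exceeded by 2.91% and 3.003% of genes. Cacna2d3, linked to heat pain in flies and mice, was at 53.7 and 55.3 TPM, and Cacna2d1 stood 5.35-fold and 5.12-fold above it. Cacna2d2, a second gabapentin-binding form, was at 7.49 and 6.30 TPM. Cacna2d4, known from the retina, was listed at 0 in the alum pool and at 0.0274 TPM in the other.

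Among the beta subunits, which bind the alpha1 pore inside the cell, Cacnb4 took 85.6% of the family's TPM in the alum pool and 89.4% in the alum + KLH pool. Its level was 201.7 and 220.9 TPM. Cacnb3 was next at 21.7 and 15.8 TPM, which put Cacnb4 at 9.29 times Cacnb3 in the alum pool and 14.01 times in the alum + KLH pool. Cacnb2 was at 6.51 and 5.98 TPM, and Cacnb1, the beta subunit of skeletal muscle that is also made in neurons, at 5.75 and 4.45 TPM. All 4 beta genes were above the threshold in both pools.

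The gamma genes divided into those of AMPA receptor regulation and those of muscle. Cacng2, which encodes stargazin, was at 12.3 and 12.7 TPM, and the related Cacng7 at 12.5 and 11.2 TPM. Cacng5 was at 9.11 and 10.2 TPM. These were the 3 of 8 gamma genes above 3 TPM, and Cacng3 lay just under the threshold at 2.92 and 2.51 TPM. Cacng4 was at 0.286 and 0.432 TPM and Cacng8 at 0.0487 and 0 TPM. Cacng1, the gamma subunit of the skeletal muscle channel, and its relative Cacng6 were listed at 0 in both pools.

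Among the release channel genes, ryanodine receptor RNA was the more abundant. Ryr2, the cardiac and neuronal form, was at 23.5 TPM in the alum pool and 22.2 TPM in the alum + KLH pool, and Ryr3 was at 4.35 and 4.26 TPM. Ryr1, the skeletal muscle form, was at 0.0994 and 0.105 TPM. Of the pore, gamma and release channel genes of skeletal muscle, Cacna1s, Cacng1 and Ryr1, none exceeded 0.105 TPM in either pool. Of the IP3 receptors, Itpr1, the main neuronal form, was at 3.96 and 4.65 TPM, and Ryr2 exceeded it 5.94-fold and 4.78-fold. Itpr3 was at 1.65 and 1.35 TPM and Itpr2 at 0.344 and 0.279 TPM.

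For store-operated entry, all 5 genes were detected in the alum pool. Stim2, the sensor that responds to small falls in stored calcium, was at 31.5 and 30.8 TPM, and Stim1 was at 14.3 and 12.2 TPM, so Stim2 was 2.19 and 2.54 times as abundant. Orai2 was the highest channel gene at 14.9 and 12.7 TPM. Orai3 was at 6.90 and 4.67 TPM, and Orai1, the channel of lymphocyte calcium entry, at 3.66 and 2.70 TPM. The Orai order, Orai2 above Orai3 above Orai1, was the same in both pools.

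**Figure D2:**
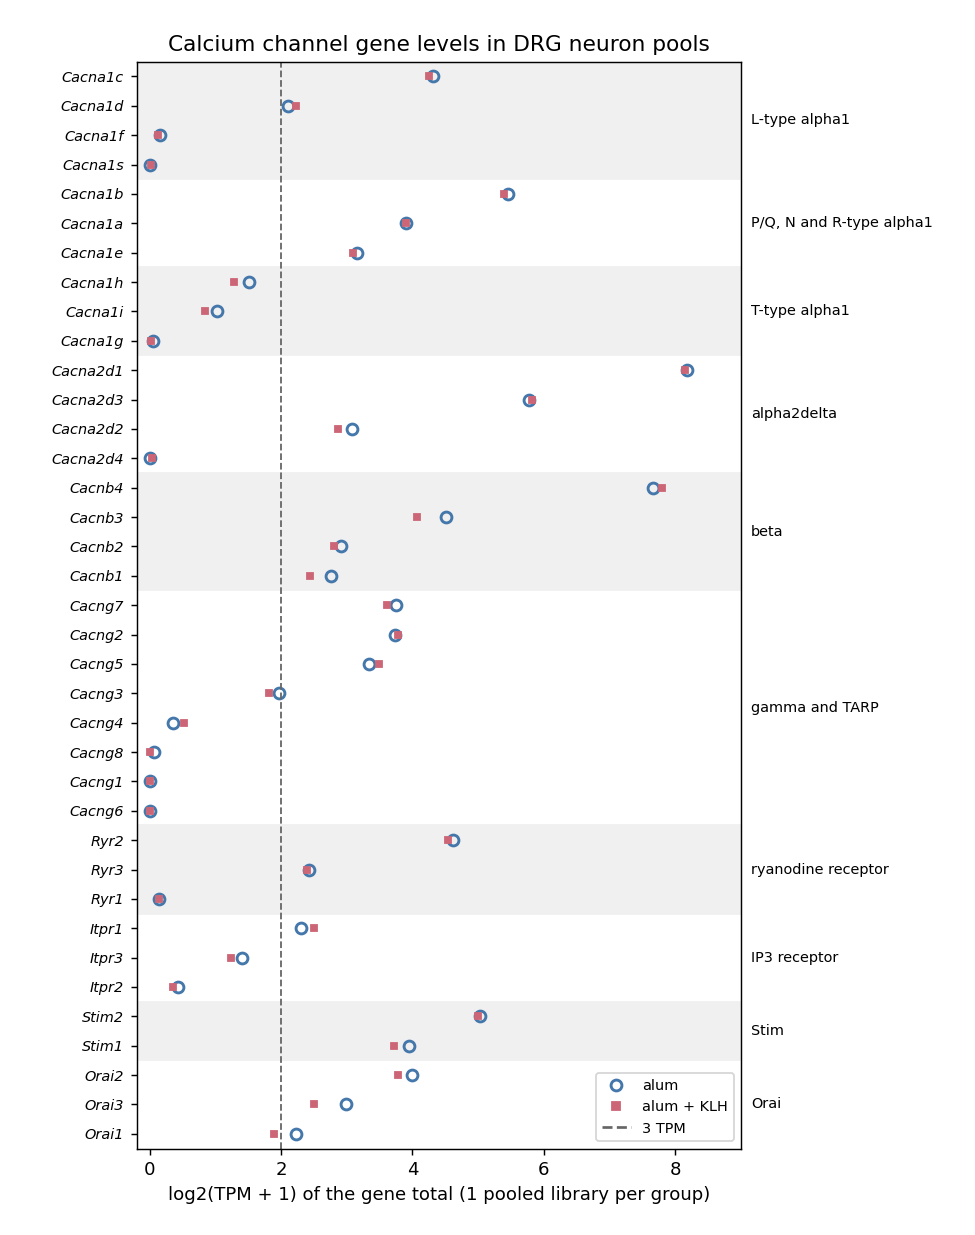
Level of each of the 37 member genes as log2(TPM + 1) of the gene total (x axis), grouped by family, in the alum library (open circles) and the alum + KLH library (red squares), with the 3 TPM threshold as a dashed line. Cacna2d1 at 287.5 and 283.4 TPM and Cacnb4 at 201.7 and 220.9 TPM stand apart on the right, and all 3 T-type genes lie left of the threshold.

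The order of the members was nearly the same in both pools. Across the 23 genes above 3 TPM in either pool, Spearman's rho between the pools was 0.987, a description over genes that share each library, with no p-value. Of the 22 neighbouring pairs in the order of the alum pool, 6 were in the opposite order in the alum + KLH pool. They were Cacnb3 with Cacna1c, Stim1 with Cacna1a, Cacng7 with Cacng2, Orai3 with Cacnb2, Ryr3 with Itpr1 and Orai1 with Cacna1d.

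The study sequenced immunized and adjuvant-only mice, primarily to describe the transcriptome of the preparations and not for a statistical comparison of the groups. Each difference below is a log2 ratio, with TPM + 1 of the alum + KLH pool divided by TPM + 1 of the alum pool. The added 1 TPM understates differences of low genes. None of the 23 members above 3 TPM was 1.5-fold apart in either direction, and 0 were 2-fold apart. Among all 11648 genes above 3 TPM in either pool, 1.00% were at least 1.5-fold higher, 1.55% at least 1.5-fold lower and 1.64% at least 2-fold apart. At these shares a list of 23 genes holding no such gene is near the background. The members' ratios ran from -0.48 to 0.19 with a median of -0.05, beside a median of -0.02 over all 11648 genes.

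The lower end of that range was held by Orai3, with a log2 ratio of -0.48, Cacnb3, with -0.44, and Orai1, with -0.33. These were the 3 members at least 1.25-fold lower, a limit chosen after the values had been seen, and 2 to 4 members met it under the other settings tried. They make up 13.0% of the 23, where 5.39% of all genes were as far down, and 0 members were at least 1.25-fold higher, beside 2.29% of all genes. The SD of the ratio was 0.52 over the 3083 genes with a mean of 3 to 10 TPM, which include Orai3 and Orai1. Both lay within 1 SD of that class, but only 4.15% of its genes were at least 1.5-fold apart. A few extreme genes thus widen this SD, and lying within it does not place Orai3 or Orai1 among the typical genes. Cacnb3 lay outside the SD of 0.33 among the 3117 genes with a mean of 10 to 30 TPM. At the other end Itpr1 had a ratio of 0.19, Cacng5 of 0.15 and Cacnb4 of 0.13. These SDs describe other genes in the same libraries and do not stand for replicate error.

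All 3 Orai and both Stim genes had the lower value in the alum + KLH pool. The ratios were -0.21 for Orai2, -0.22 for Stim1 and -0.03 for Stim2, and the summed Orai TPM was 25.4 in the alum pool and 20.1 in the alum + KLH pool, a log2 ratio of -0.32. Over the 23 members 16 had the lower value in the alum + KLH pool and 7 the higher, 69.6% lower beside 56.4% of all genes. The log2 ratios of the other family sums ran from -0.28 for the T-type genes, which are below the threshold, to 0.07 for the beta and the IP3 receptor genes. Beside this, the 5 satellite glia markers were all lower in the alum + KLH pool, with a sum of 1467 TPM in the alum pool and 1352 TPM in the other, the 4 detected Schwann cell markers were all lower (sums of 1487 and 1419 TPM), and 4 of 5 nociceptor markers were lower (sums of 8014 and 7493 TPM). The 3 listed markers of C-low-threshold neurons were all lower (sums of 143.6 and 135.9 TPM). The large-fibre neuron markers summed to 1326 and 1468 TPM, with 2 of 4 lower. Without Spp1, at 196.1 and 352.4 TPM, they summed to 1130 and 1116 TPM, and most of that remaining sum was Nefh, at 1020.7 and 973.5 TPM. Pvalb was also higher in the alum + KLH pool, at 80.4 and 114.3 TPM, and Ntrk3 was at 29.1 and 28.0 TPM. The part of cell composition in the channel differences was not tested.

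**Figure D3:**
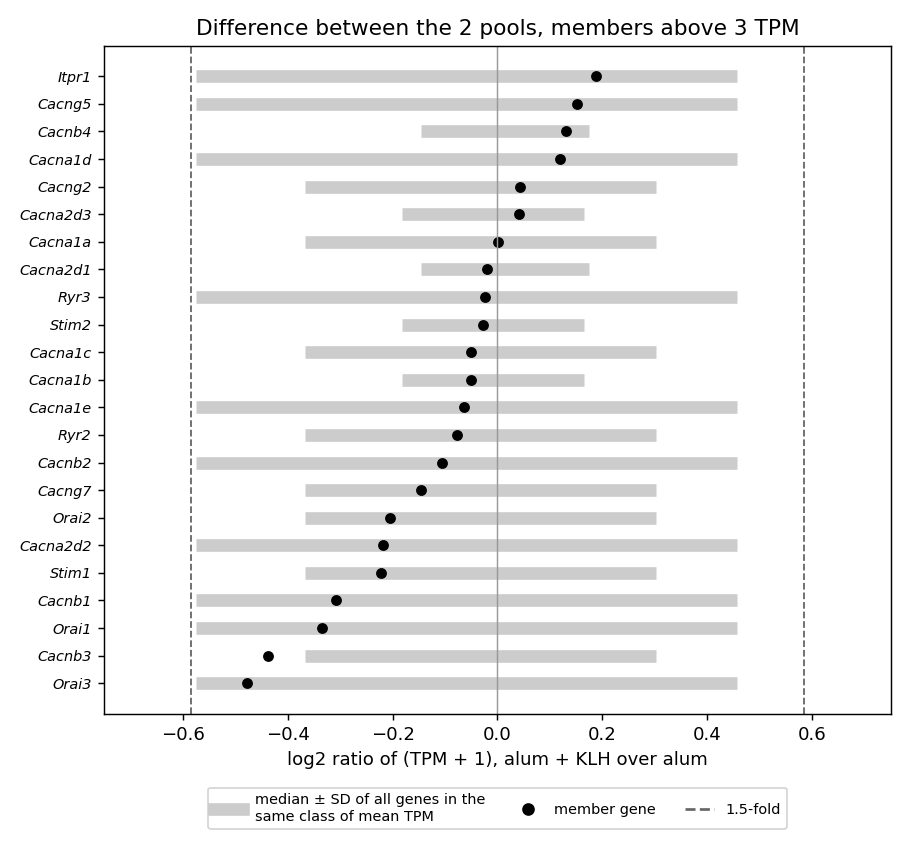
Log2 ratio of (TPM + 1), alum + KLH over alum (x axis), for the 23 members above 3 TPM (black points), with the median ± SD over all genes of the same abundance class (grey bars) and dashed lines at 1.5-fold. The points run from -0.48 for Orai3 to 0.19 for Itpr1, all inside the dashed lines. In the class of 3 to 10 TPM a few extreme genes widen the grey bar.

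Transcripts within a gene differ in the cassettes they carry, and for several members the files resolve them. The deposited rows are RefSeq transcripts, and 81 of the 82 rows of these genes matched a GENCODE M21 model. Of the 23 detected members, 11 had 2 or more rows. All 11 had the same leading row in both pools, and the largest change in any row's share was 12.9 percentage points, for NM_145121 of Cacnb1. The sequences below come from these models on GRCm38 and are shown because they separate the transcript that carried the signal from those that did not. Capitals mark the alternative segment and lower case the 12 bases on either side of it in the spliced transcript.

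Cacna2d1 carries 3 alternative coding segments, a 57-base exon (chr5:16322539-16322595), a 15-base extension at the start of the next exon (chr5:16326312-16326326) and a 21-base exon (chr5:16341990-16342010), all on the plus strand.
Cacna2d1 57-base exon: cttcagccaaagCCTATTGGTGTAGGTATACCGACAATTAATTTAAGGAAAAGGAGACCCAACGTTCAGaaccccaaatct
Cacna2d1 15-base extension: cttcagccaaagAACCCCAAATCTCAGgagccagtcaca
Cacna2d1 21-base exon: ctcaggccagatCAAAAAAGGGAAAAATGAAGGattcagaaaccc

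The leading row, NM_001110844, has the extension and the 21-base exon and lacks the 57-base exon. It was at 278.5 TPM in the alum pool and 274.0 TPM in the alum + KLH pool, 96.9% and 96.7% of the gene. Rows with the 57-base exon held 1.74% and 2.28%. Rows with the 15-base extension held 99.2% and 99.0%, and rows with the 21-base exon 97.6% and 97.7%. The Cacna2d1 RNA of both pools was therefore almost entirely on a single row.

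The N-type gene Cacna1b has 2 rows that differ in coding microexons. NM_007579 includes a 6-base exon (chr2:24642853-24642858) and NM_001042528 a 12-base exon (chr2:24656711-24656722), both on the minus strand.
Cacna1b 6-base exon: acagagatagcgGAAACGaacaacttcatc
Cacna1b 12-base exon: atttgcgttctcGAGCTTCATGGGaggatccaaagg

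The form with the 6-base exon was at 30.7 TPM in the alum pool and 28.5 TPM in the alum + KLH pool, 71.9% and 69.2% of the gene. The form with the 12-base exon was at 12.03 and 12.7 TPM. The latter also has a 108-base coding exon further downstream. Forms that combine these exons in other ways have no row, and their reads would have been placed on these 2.

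In Cacna1c a pair of 60-base coding exons and a pair of 84-base coding exons are used as alternatives. The members of each pair have the same length and keep the reading frame, and both pairs are on the minus strand of chromosome 6 (118674346 to 118674405 or 118674555 to 118674614, and 118637730 to 118637813 or 118638427 to 118638510).
Cacna1c 60-base exon at 118674346: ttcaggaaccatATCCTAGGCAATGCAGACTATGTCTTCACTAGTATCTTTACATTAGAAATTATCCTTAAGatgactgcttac
Cacna1c 60-base exon at 118674555: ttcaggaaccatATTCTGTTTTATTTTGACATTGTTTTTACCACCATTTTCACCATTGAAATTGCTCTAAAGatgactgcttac
Cacna1c 84-base exon at 118637730: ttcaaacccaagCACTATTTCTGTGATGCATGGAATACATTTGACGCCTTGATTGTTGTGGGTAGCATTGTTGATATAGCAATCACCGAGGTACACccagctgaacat
Cacna1c 84-base exon at 118638427: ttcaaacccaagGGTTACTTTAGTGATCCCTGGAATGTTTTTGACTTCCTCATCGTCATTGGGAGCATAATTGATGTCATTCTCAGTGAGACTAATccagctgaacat

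Rows with the first 60-base exon held 97.6% of Cacna1c in the alum pool and 94.6% in the alum + KLH pool, and rows with the other 2.37% and 2.91%. The model of NM_001290335, at 0.445 TPM in the alum + KLH pool and practically 0 in the other, has neither. The 84-base pair was mixed, with 39.3% and 29.4% on rows with the exon at 118637730 and 60.7% and 70.6% on rows with the other. Among the rows with the exon at 118637730, the main row NM_001159534 was at 5.25 TPM in the alum pool and 5.32 TPM in the alum + KLH pool. The low rows NM_001159535 (1.31 and 0.0095 TPM) and NM_001256002 (0.661 and 0.0106 TPM) fell to near 0. The number of reads behind these low rows is unknown. Of the 11 Cacna1c rows, 4 share a model with another row, so their exons rest on that shared match. The highest row was NM_001159533, at 5.80 TPM in the alum pool and 7.40 TPM in the alum + KLH pool. Its log2 ratio of 0.30 had the opposite sign to that of the gene total, -0.05. By start site, 69.2% and 70.4% of Cacna1c came from models that begin near 119107975 and 30.8% and 27.1% from models that begin near 119196231.

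In Cacna2d2, rows with a 21-base coding exon (chr9:107519179-107519199) held 74.9% in the alum pool and 81.1% in the alum + KLH pool. In Cacnb1 a 20-base exon was on rows holding 84.4% and 97.3%, and the second row, NM_001159320, was at 0.665 and 0.120 TPM, below the threshold in both pools. Cacnb2 had 2 rows with equal values in each pool (0.689 and 0.345 TPM), NM_001309519 and the noncoding NR_045533, and its leading row NM_001252533 held 72.4% and 81.9%. The leading row changed only in genes below 3 TPM. In Itpr2 it was NM_010586 in the alum pool, at 0.195 TPM there and 0 in the alum + KLH pool, and NM_019923 in the alum + KLH pool, at 0.148 and 0.279 TPM. In Cacna1g it was NM_001177890 at 0.0381 TPM in the alum pool and NM_001177888 at 0.019 TPM in the other. The number of reads behind such low rows is unknown, and nothing is read from these changes.

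**Figure D4:**
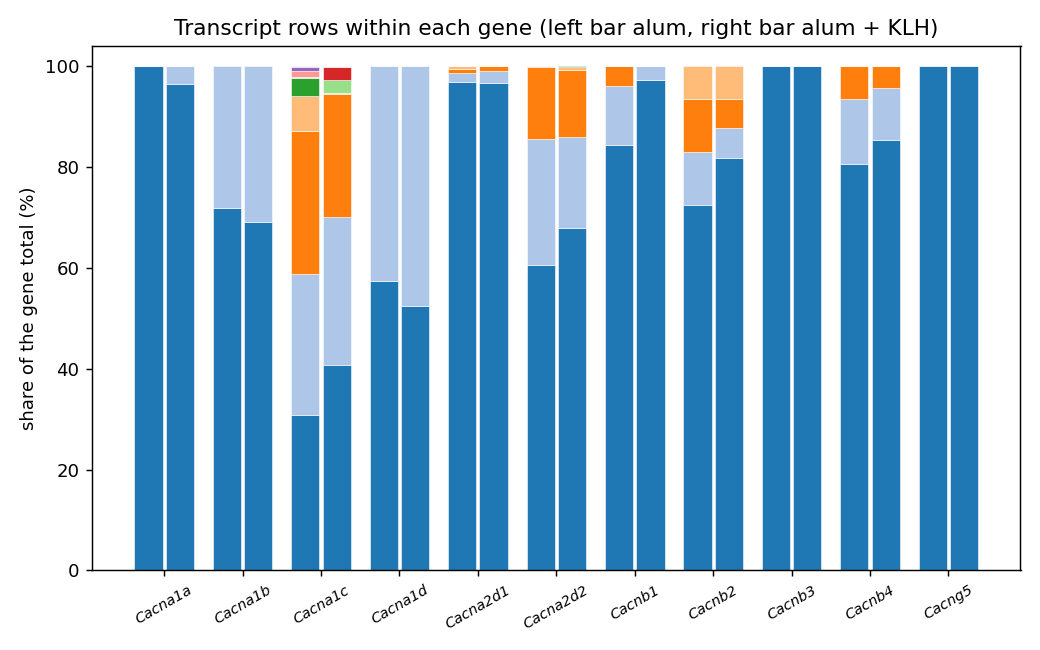
Share of each gene's TPM (y axis, percent) held by its transcript rows for the 11 detected members with at least 2 rows, with the alum library in the left bar and the alum + KLH library in the right bar and the leading row at the bottom in dark blue. The leading row of Cacna2d1 holds 96.9% and 96.7%, and that of Cacna1c 30.8% and 40.8%.

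The beta subunit genes Cacnb4 and Cacnb3 each have distant alternative starts, and in both genes the signal came from 1 of them. For Cacnb4, the 3 rows matched to models that begin near base 52558560 of chromosome 2 held 201.7 of 201.7 TPM in the alum pool and 220.9 of 220.9 TPM in the alum + KLH pool. The 2 rows matched to the model that begins far upstream, near base 52676831, summed to 0.00045 and 9.9e-05 TPM. Of the 3, NM_001285428 was at 162.5 and 188.6 TPM, NM_146123 at 26.0 and 22.7 TPM and NM_001285427 at 13.2 and 9.59 TPM. Only the first of these was higher in the alum + KLH pool. Because 4 of the 5 Cacnb4 rows share a model with another row, these starts rest on GENCODE's own RefSeq table. For Cacnb3 the single row that begins near 98632376 of chromosome 15 held the whole 21.7 and 15.8 TPM, and the 2 rows that begin downstream of it were listed at 0. The 300-base RefSeq promoter windows (GRCm38.p6) nearest to the starts in use are printed because nearly all signal of both genes was on rows that begin near them. The Cacnb4 window stops just short of base 52558560, the start taken for its models. CG dinucleotides are in capitals.
Cacnb4 start in use, chr2:52558562-52558861, minus strand: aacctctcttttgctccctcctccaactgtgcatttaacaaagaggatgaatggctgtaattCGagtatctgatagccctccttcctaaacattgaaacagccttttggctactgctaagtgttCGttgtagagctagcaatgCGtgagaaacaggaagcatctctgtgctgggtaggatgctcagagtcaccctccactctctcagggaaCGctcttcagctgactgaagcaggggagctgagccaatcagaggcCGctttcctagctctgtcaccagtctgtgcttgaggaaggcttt
Cacnb3 start in use, chr15:98632078-98632377, plus strand: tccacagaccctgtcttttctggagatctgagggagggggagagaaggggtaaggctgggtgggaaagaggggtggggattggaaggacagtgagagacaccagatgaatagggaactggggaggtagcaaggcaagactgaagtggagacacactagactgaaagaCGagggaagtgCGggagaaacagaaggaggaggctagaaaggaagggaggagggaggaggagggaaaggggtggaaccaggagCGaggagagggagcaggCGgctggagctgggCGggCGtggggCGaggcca

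The Cacnb4 window held 5 CG dinucleotides and was 49.7% G and C, and the Cacnb3 window held 7 and was 59.7% G and C. Over all 32851 promoter windows the median was 7, with at least 5 in 62.0% and at least 7 in 52.1%. The windows nearest to the unused starts held 40 CG dinucleotides for Cacnb4 and 29 for Cacnb3. They do not reach the start positions taken for those models, so no comparison is drawn from them.

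RNA of channel partners was present in the same pools. Of 49 partner genes in 9 lists, 37 were above 3 TPM, and 0 of these were 1.5-fold apart in either direction. Of the 11648 genes above 3 TPM in either pool, 1.00% lay that far up and 1.55% that far down. A list of 37 with 0 such genes is thus near the background. The 37 partners had a median log2 ratio of 0.00 and ran from -0.31 to 0.28. The calcium channel inhibitors Gem and Rem2, small GTPases of the RGK family, were at 22.7 and 24.1 TPM in the alum pool and 24.5 and 23.1 TPM in the alum + KLH pool. Stac, an adaptor of L-type channels, was at 43.1 and 39.6 TPM. Junctophilins tie the endoplasmic reticulum to the plasma membrane, and Jph4 led them at 30.97 and 28.01 TPM, while Jph2 of heart and muscle was at 0.177 and 0.284 TPM.

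The ryanodine receptor stabilizers Fkbp1a and Fkbp1b were at 462.2 and 467.8 TPM in the alum pool and 493.4 and 441.3 TPM in the alum + KLH pool. The muscle store proteins Casq1, Casq2 and Trdn were below 0.7 TPM. Ahcyl1, which encodes the IP3 receptor inhibitor IRBIT, was at 279.6 and 299.6 TPM. Saraf, a brake on store-operated entry, was at 182.1 and 175.9 TPM.

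Nalcn, the sodium leak channel related to the calcium channel pores, was at 66.4 and 66.6 TPM, above Cacna1b in both pools. Its partner Unc80 was at 76.3 and 93.2 TPM, and Unc79 at 4.48 and 4.38 TPM. Micu3, the neuronal gatekeeper of the mitochondrial uniporter, was at 323.6 and 359.5 TPM, against 41.0 and 41.4 TPM for the pore gene Mcu. The active zone genes Erc2 and Rims1, which hold presynaptic calcium channels near vesicles, were at 83.1 and 48.5 TPM in the alum pool and 84.5 and 43.4 TPM in the alum + KLH pool.

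Sequence shared with other genes was a small part of most members, with Cacnb4 the largest exception. For 28 of the 37 members, less than 2% of the 31-base words of the leading transcript occurred in annotated transcripts of other genes in either orientation. The largest share was 17.6% for Cacnb4 with the antisense gene A430018G15Rik, followed by 13.7% for Cacna1s. Ryr3 shared 5.43% with Aven, a gene on the opposite strand at 22.6 and 21.2 TPM, and Cacng2 shared 6.45% with the antisense RNA A730060N03Rik. A430018G15Rik and A730060N03Rik have no row of their own among the deposited values. Any of their reads in the shared stretches may therefore have been counted on Cacnb4 and Cacng2. The libraries were stranded, but the strand setting of the quantification is not given in the sources used here, so reads of these overlaps cannot be told apart with certainty.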

How the data were processed

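RNA-seq was analysed from 2 libraries, 1 of alum-injected and 1 of alum + KLH-immunized mice, each of 10 pooled mice. Per the submitters' processing notes, the authors used bcl2fastq, cutadapt and kallisto with mm10, and the files they deposited list a TPM for each RefSeq transcript. The kallisto version and strand setting are not given in the sources used here. The study's methods give a minimum read depth per library, but the files hold no read counts, so no interval was computed.

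TPM was summed per gene symbol. Differences were log2 ratios of (TPM + 1), counted past 1.5-fold among genes over 3 TPM in either pool. With 1 library per group no test was made, and p-values were not computed. The members and lists were chosen with earlier results of these data known. All members above 3 TPM are named with both values, the others with their values or range, and from each partner list the highest genes and any gene 1.5-fold apart; a few further partner genes (Jph2, Casq1, Casq2, Trdn, Unc79, Rem2, Fkbp1b, Nalcn, Mcu and Rims1) were named after their values had been seen. Rows were matched to GENCODE M21 models (GRCm38, the assembly of mm10) by its RefSeq table, and 17 rows share a model with another row. Gene positions and promoter windows are from RefSeq (GRCm38.p6), and 29 of the 37 genes have a window. Also tried were a detection threshold of 1 or 10 TPM, a pseudocount of 0.1 or 0.5 TPM, other filters, rescaling by the median ratio and the highest row of each gene. Python 3.11.15, numpy 2.4.6, pandas 2.3.3 and matplotlib 3.10.9 were used. The ratio calculation was run on alum TPM values multiplied by known factors without noise. That checks the arithmetic only and says nothing about variation between libraries.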

Additional observations from a re-analysis of the deposited data

How the results depend on the processing

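No paired analysis was possible because each group has 1 library, and none could be left out. The count of members above the threshold moved with the threshold itself, to 13 in the alum pool and 14 in the alum + KLH pool at 10 TPM. The count of members at least 1.5-fold lower was 0 with each other setting tried (pseudocounts of 0.1 and 0.5 TPM, no filter on low values, a filter at 10 TPM, rescaling by the median ratio of 0.985 and the highest row of each gene) and 3 at the limit of 1.25-fold, which was added after seeing the data. At that limit 2 were lower on rescaling, where Orai1 was at -0.32, and 4 with either smaller pseudocount, where Cacnb1 joined. With 0.1 TPM added, the T-type sum had a ratio of -0.37 and the Orai sum one of -0.34. Of 56 recomputed counts, medians and family ratios, 53 stayed within the limits used here. The limit was 1.5 times for a count and 1 SD of genes of similar abundance for a ratio. For the median it was the SD of 0.39 over all genes. These SDs are of single genes, so they are loose limits for a median or a family sum. The L-type sum went from -0.02 to 0.24 with the highest row of each gene and still counted as within its limit. Of 92 recomputed ratios of single members, 91 stayed within theirs. The exception was Cacna1c, whose log2 ratio went from -0.05 to 0.30 when its highest row replaced the gene total. Cacnb2 went from -0.11 to 0.05 and Cacna1a from 0.0012 to -0.05 in the same way, and Cacna2d1 from -0.02 to 0.0011 on rescaling. These changes of sign counted as within the limits, which were loose for single members too. At 3 to 10 TPM the SD was 0.52, larger in size than any member's own ratio. Without read counts, the precision of values below 3 TPM cannot be given.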
